A study of Homo sapiens with 4 samples.

Results

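The DLG scaffold family comprised DLG1, DLG2, DLG3, DLG4 and DLG5, which were 5 of the 18917 gene symbols in a count table of RNA from WT and THUMPD1 KO cells. The members were selected by symbol, and the family was taken up because of measured values: the count of DLG2 fell by more than 1 log2 unit at high counts in this same comparison. The fold change of DLG2 is therefore given as a description with no test, and the other 4 members were tested. All 5 members had at least 1 CPM in all 4 libraries (CPM, a count scaled to the library size as adjusted by edgeR's TMM method), so each was among the 13128 genes tested.

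The cells were HEK-293T, an immortalized human embryonic kidney line that the sample labels call HEK293. Both genotypes were grown in DMEM with 10% serum and 2 mM glutamine. In KO cells THUMPD1, the adaptor that brings the acetyltransferase NAT10 to tRNA, had been deleted by CRISPR-Cas9 with a pair of guides followed by sorting of single cells. A line grown from 1 cell carries clone and genotype together, and these cannot be told apart here. The labels give 2 libraries per genotype from an rRNA-depleting kit and do not say whether these came from separate cultures, so p-values measure only the spread between these libraries.

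DLG proteins are membrane-associated guanylate kinases (MAGUKs), scaffolds built from PDZ domains, an SH3 domain and a guanylate kinase-like domain that binds proteins instead of making nucleotides. Their PDZ domains hold the C-terminal tails of receptors, channels and adhesion proteins at the membrane, and their other domains tie those to signaling and cytoskeletal proteins. In neurons DLG1 to DLG4 organize the postsynaptic density. In epithelial cells DLG1 and DLG5 act in cell polarity and junctions.

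Total counts ran from 7875722 to 11362363 per library, and 3 counts, used as the floor, equaled 0.259 to 0.391 CPM. The chi-square per degree of freedom over genes was 4.08 between the WT libraries and 6.90 between the KO libraries, and 20.8 to 41.7 between libraries of different genotype. THUMPD1 itself was counted 356 and 468 times in the WT libraries but 71 and 58 times in the KO libraries, and its log2 fold change was -2.93 (SE 0.17, adjusted p = 1.27e-12, edgeR quasi-likelihood test with Benjamini-Hochberg adjustment). Of the embryonic kidney markers listed, 8 of 9 were tested, 1 was called higher in KO and 0 lower, and their summed level was 257 to 273 CPM in WT and 261 to 266 CPM in KO. Markers of leukocytes (8.73 to 9.55 CPM summed in WT, 6.21 to 6.94 in KO) and endothelium (1.0 to 1.56 in WT, 1.04 to 1.59 in KO) were low, with CD3E, CD14, PECAM1 and CDH5 at or below 3 counts in every library.

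DLG2, which encodes the postsynaptic scaffold PSD-93 (also chapsyn-110), stood far apart from the other members in both level and difference. The 2 WT libraries held 8921 and 10151 of its reads, and the 2 KO libraries 1269 and 1672. Scaled to library size these were 1162 and 923 CPM in WT (mean 1043 ± 169, SD, n = 2) and 109 and 157 CPM in KO (133 ± 33.5, SD, n = 2). The genotypes did not overlap: the higher KO library lay far below the lower WT library, while within a genotype the libraries differed by 0.33 log2 units in WT and 0.52 in KO. The log2 fold change of KO against WT was -2.97, or 7.83-fold lower. Between replicates the SD of the log2 CPM of DLG2, pooled over the genotypes, was 0.31. Leaving out each library in turn gave values from -3.25 to -2.73. The RNA is measured in bulk, so that fewer cells with the transcript and less transcript per cell cannot be told apart. Whether some of the reads come from an rRNA-like stretch in the gene body, described below, was not tested.

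Of the tested genes, 4765 averaged 50 CPM or more. In that group, 27 lay below a log2 fold change of -1 and 2 above 1, and DLG2 was the 4th lowest. The gene just inside this limit was MTRNR2L8 at -1.018, and the gene just outside was STX4, a syntaxin of the plasma membrane, at -0.997.

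**Figure D1:**
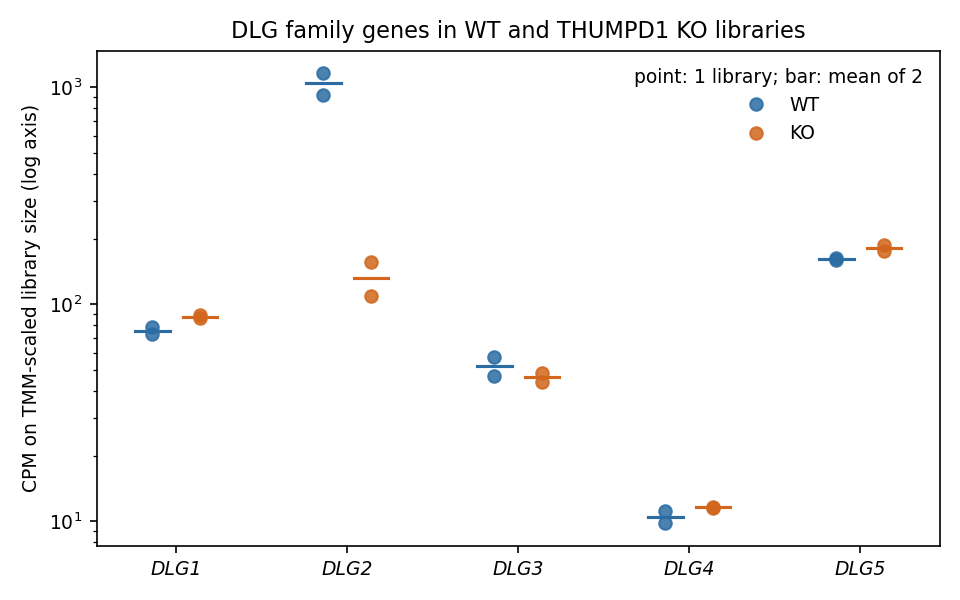
CPM (log axis) of the 5 DLG genes in each of the 2 WT and 2 KO libraries, with 1 point per library and a bar at the mean of each genotype. DLG2 lies at 923 to 1162 CPM in WT and 109 to 157 CPM in KO, whereas each of the other members has WT and KO libraries close to each other.

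The DLG2 gene body holds a stretch copied from 28S ribosomal RNA, and the search found no such stretch in the other members. The copy lay at chr11:85483967-85484260 (GRCh38), 294 bases long, in intron 2 of 25 of the longest DLG2 transcript in GENCODE 44, 144075 bases from the start of the gene, and it overlapped 0 annotated exons. It ran on the plus strand, opposite to DLG2, and matched bases 262 to 582 of 28S rRNA with 285 of 294 aligned bases identical (96.9%, or 88.8% when the 27 gap columns count as differences). The first 215 bases align without gaps and are printed here, since they show how nearly the intron and the ribosomal gene read alike. Both are 5′ to 3′ on the plus strand of GRCh38, the 28S gene RNA28SN1 at chr21:8441407-8441621 and the DLG2 intron at chr11:85483967-85484181, and capitals mark the bases that differ:
28S RNA28SN1: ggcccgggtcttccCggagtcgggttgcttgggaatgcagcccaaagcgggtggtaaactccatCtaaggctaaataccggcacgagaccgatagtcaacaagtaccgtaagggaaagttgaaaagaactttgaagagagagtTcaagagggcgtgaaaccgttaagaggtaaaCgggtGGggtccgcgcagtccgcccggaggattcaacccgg
DLG2 intron: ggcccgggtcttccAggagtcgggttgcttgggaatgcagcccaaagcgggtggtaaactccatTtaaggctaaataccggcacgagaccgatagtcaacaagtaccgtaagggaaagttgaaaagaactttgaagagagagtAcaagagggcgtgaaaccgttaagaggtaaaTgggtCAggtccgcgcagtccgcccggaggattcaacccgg
The 215 bases held 6 differences (209 identical, 97.2%), which were C15A, C65T, T144A, C175T, G180C and G181A, with the 28S base first and positions counted from 1 at the first base printed. The longest run without a difference was 78 bases. A shorter stretch of 204 bases like 18S rRNA lay further into the gene at chr11:85081549-85081752, with 84.7% identity, and fell under the limit of 90% used here. DLG1, DLG3, DLG4 and DLG5 had no match to 18S, 28S or mitochondrial rRNA in the same search.

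Other genes with such copies were examined beside DLG2, as a list drawn up after values had been seen and so without a test. Of the genes tested, 18 besides DLG2 held a copy of rRNA of at least 80 bases and 90% identity in the gene body. Their median log2 fold change was -0.61, against 0.01 over all genes tested, and 8 of the 18 lay below -1. The list split by level. Of the 10 that averaged 50 CPM or more, 8 lay below -1 and 2 above 0, with a median of -2.51. Of all 4765 tested genes at that level, 27 lay below -1, DLG2 included. Of these 27, 25 had a position in the annotation and could be searched for a copy. Of the 8 genes with a copy at lower levels 0 lay below -1, and their median was -0.11. Of the 18, 15 lay below 0, and the values ran from -3.27 to 0.37. AAMDC and INTS4, both at -0.06, overlap and hold the same copy of 28S on chromosome 11, which was counted for each gene.

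With gap columns counted as differences, DLG2 no longer met the limit. The 106 tested symbols with no position in the annotation could not be searched. The 3 genes with a copy and a log2 fold change above 0 were TXNL4A, a spliceosome component, at 0.35, UTRN, which encodes the dystrophin relative utrophin, at 0.37, and USP53, of a ubiquitin protease family, at 0.18. The summed level of the 18 genes was 22240 and 24025 CPM in the WT libraries and 3196 and 5594 CPM in the KO libraries, so that it moved with the DLG2 level. The 13 other genes with a copy of 28S held other stretches of it, and 0 bases were shared with the stretch found in DLG2. Whether reads in introns or on the other strand were counted is not given in the sources used here, and the part of rRNA copies in the DLG2 result was not tested.

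**Figure D2:**
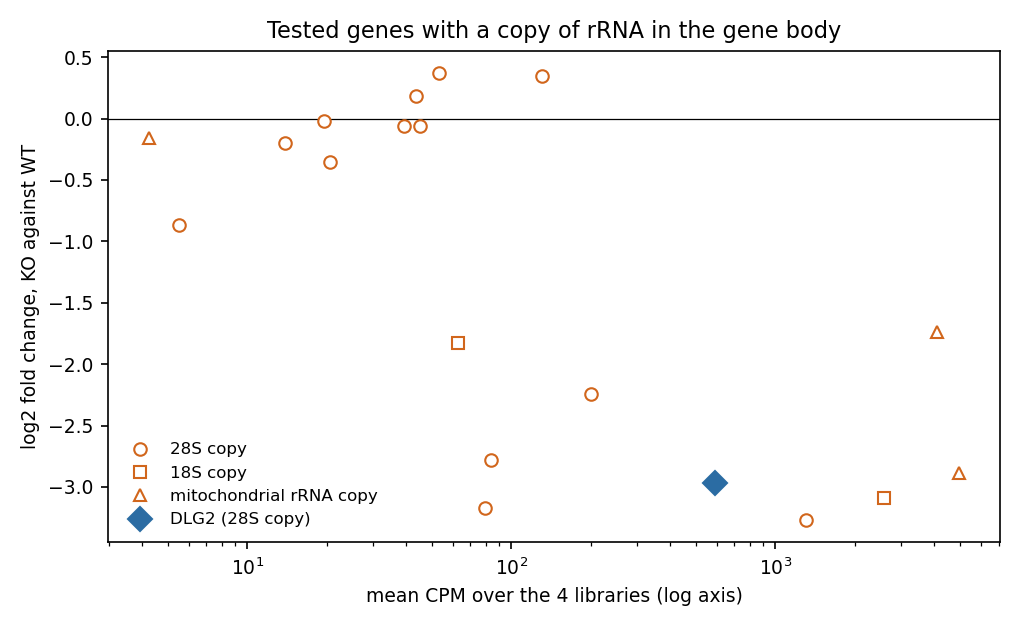
Log2 fold change of KO against WT (vertical) against the mean CPM over 4 libraries (horizontal, log axis) for DLG2 and the 18 other tested genes that hold a copy of rRNA, with the marker shape giving the kind of rRNA. The mean is over both genotypes and so is itself lowered by a fall in KO. Of the 18 genes 8 lie below -1, as DLG2 does, and 3 lie above 0.

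The genes whose pattern over the 4 libraries was most like that of DLG2 were found by the distance between centred log2 CPM, over the 11107 genes that averaged 5 CPM or more. The nearest was ABCB6, a porphyrin transporter of the ABC family, at a distance of 0.197, with 10.0 and 8.46 CPM in WT and 0.949 and 1.41 CPM in KO. SLCO5A1, an organic anion transporter family gene, followed at 0.200, with 162 and 131 CPM in WT and 17.3 and 25.5 CPM in KO. The next was MYD88, the adaptor of Toll-like receptors, at 0.229, with 9.51 and 9.0 CPM in WT and 0.863 and 1.13 CPM in KO. UNC45B, a myosin chaperone of muscle, stood at 0.315 with a log2 fold change of -3.27, and PDE3A, a cyclic nucleotide phosphodiesterase, at 0.370 with -3.09. Of these 5, SLCO5A1 and UNC45B held a copy of 28S and PDE3A one of 18S, while ABCB6 and MYD88 held none.

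The other 4 members differed far less between the genotypes, and 0 of 4 were called, where 20.9% of all genes tested were called (2748 of 13128; 8.79% higher and 12.1% lower in KO). The balance of the directions turned with scaling: 1154 were higher and 1594 lower by TMM, and 2081 higher and 1158 lower by library size alone. At an unadjusted p under 0.05 edgeR gave 2 of the 4, DLG1 and DLG5, which limma-voom called after adjustment, and DESeq2 called 0. DLG1, DLG4 and DLG5 had both KO libraries above both WT libraries. The genotypes failed to overlap in 60.3% of all genes tested, so that such a split was common.

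DLG1 (SAP97), the broadly expressed member that sorts channels and receptors and takes part in epithelial polarity, had 604 and 801 counts in WT and 1006 and 950 in KO. Its levels were 78.7 and 72.8 CPM in WT (75.8 ± 4.16) and 86.8 and 89.1 CPM in KO (88.0 ± 1.63). The log2 fold change was 0.22 (SE 0.09, 95% interval 0.05 to 0.39), with an unadjusted p of 0.0169 and an adjusted p of 0.0704 (edgeR quasi-likelihood test, Benjamini-Hochberg over all genes tested). It was called in 4 of 11 alternative fits, whose adjusted p ran from 0.00966 to 0.351. The KO libraries were thus slightly higher by each fit, and the fits that called the gene were those with library size alone, upper quartile scaling, limma-voom and the replicate block.

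DLG5, a larger relative that acts in epithelial polarity and cadherin delivery, had 1262 and 1765 counts in WT and 2041 and 1994 in KO. Its levels were 164 and 160 CPM in WT (162 ± 2.81) and 176 and 187 CPM in KO (182 ± 7.72). The log2 fold change was 0.16 (SE 0.07, 95% interval 0.03 to 0.29; unadjusted p = 0.0251, adjusted p = 0.0934, same edgeR test). It was called in 3 of 11 alternative fits, with adjusted p from 0.00768 to 0.414. DLG5 and DLG1 therefore lay in the same direction with differences of similar size.

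DLG3 (SAP102), the X-linked member known for carrying NMDA receptors early in development, had 439 and 516 counts in WT and 511 and 514 in KO. Its levels were 57.2 and 46.9 CPM in WT (52.1 ± 7.28) and 44.1 and 48.2 CPM in KO (46.2 ± 2.91), and the genotypes overlapped. The log2 fold change was -0.17 (SE 0.11, 95% interval -0.39 to 0.06; adjusted p = 0.325, edgeR), which became -0.02 on leaving out WT replicate 1 and -0.31 on leaving out WT replicate 2. The interval held differences in both directions, and the WT libraries lay 0.29 log2 units apart.

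DLG4, which encodes PSD-95, the main scaffold of excitatory synapses, was the lowest member, with 86 and 108 counts in WT and 133 and 125 in KO. Its levels were 11.2 and 9.82 CPM in WT (10.5 ± 0.981) and 11.5 and 11.7 CPM in KO (11.6 ± 0.176). The log2 fold change was 0.15 (SE 0.21, 95% interval -0.27 to 0.57; adjusted p = 0.668, edgeR), an interval wide enough to hold a change in either direction. DLG4 shares 2717 bases with ACADVL, a mitochondrial fatty acid dehydrogenase gene on the opposite strand (log2 fold change -0.45, adjusted p = 0.0136). Reads of the shared bases cannot be told apart without strand, so that the count of DLG4 is uncertain.

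To compare the members with each other, CPM were divided by the length of the longest coding transcript of each gene in GENCODE 44. That length leaves introns out, and whether intron reads were counted is not given. The levels below are thus counts per kilobase of transcript, and may differ from levels of mature RNA, for DLG2 above all. In WT the order of the mean level in CPM per kilobase was DLG2 at 111 ± 18, DLG5 at 21.3 ± 0.368, DLG1 at 12.7 ± 0.696, DLG3 at 8.52 ± 1.19 and DLG4 at 1.70 ± 0.159 (SD, n = 2). No neighbours in that order overlapped in their libraries. In KO the order was DLG5 at 23.8, DLG1 at 14.7, DLG2 at 14.2, DLG3 at 7.55 and DLG4 at 1.88 CPM per kilobase, and DLG1 and DLG2 overlapped. DLG2 thus went from the first place, 5.21 times the level of DLG5, to a level that overlapped that of DLG1.

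As a share of the summed family level per kilobase, DLG2 made up 72.9% and 69.8% in the WT libraries and 20% and 25.3% in the KO libraries. The summed CPM of the family were 1474 and 1213 in WT and 428 and 493 in KO. Without DLG2 the sums were 312 and 290 CPM in WT and 318 and 336 CPM in KO. The family total thus followed DLG2, and the sum of the other 4 lay at nearly the same height in all 4 libraries. By level per kilobase in WT, DLG2 stood at percentile 96.2 of all genes tested, DLG5 at 75.5, DLG1 at 61.6, DLG3 at 50 and DLG4 at 17.5. The limit on intron reads given above holds for these shares and percentiles too.

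In the genome the members lie on 5 chromosomes. On GRCh38 DLG1 spans chr3:197042560-197299330, DLG2 chr11:83455012-85628335, DLG4 chr17:7187187-7219841 and DLG5 chr10:77790791-77926755, all on the minus strand, and DLG3 spans chrX:70444835-70505490 on the plus strand. The median log2 fold change of the tested genes on those chromosomes was 0.06 for chromosome 3, 0.04 for chromosome 11, -0.06 for chromosome 17, 0.05 for chromosome 10 and 0.03 for the X.

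The genes around DLG2 were read for a change shared over the locus. Of the 10 nearest tested coding genes, 5 on each side, 1 was called higher, 0 lower and 9 were not called. Thus 10.0% were called, against 20.9% of all genes tested, and the median log2 fold change of the 10 was 0.13. By edgeR at an unadjusted p under 0.05, by DESeq2 and by limma-voom, 0 were lower as well. TMEM126B, a complex I assembly factor that begins 238 bases from the start of DLG2, had 17.0 CPM in WT and 17.3 in KO (log2 fold change 0.02, SE 0.17, adjusted p = 0.950, edgeR). On the other side CCDC90B, the nearest gene past the 3′ end, had a log2 fold change of 0.29 (SE 0.12, adjusted p = 0.0873). The called gene was C11orf82, a gene linked to survival after DNA damage, which rose from a mean of 19.6 to 26.8 CPM (log2 fold change 0.46, SE 0.15, adjusted p = 0.0318) and lost its call without KO replicate 2 (adjusted p = 0.253) and without WT replicate 2 (0.173). The neighbours ran from -0.33 in CCDC89 to 0.65 in RAB30, and DLG2 lay below all 10.

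**Figure D3:**
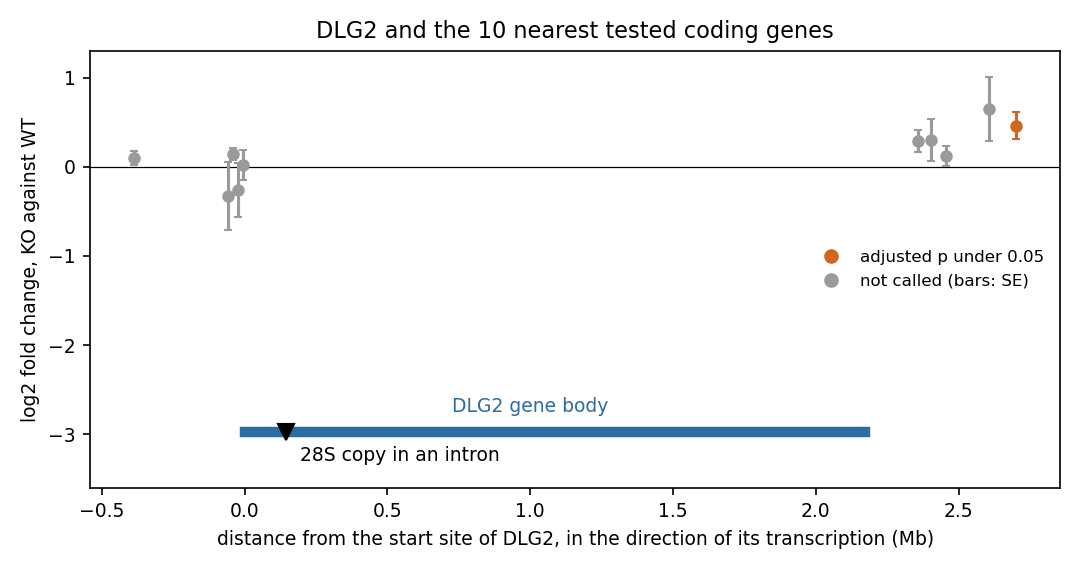
Log2 fold change of KO against WT (vertical, bars are SE) against the distance from the start site of DLG2 in Mb in the direction of its transcription (horizontal), for the 10 nearest tested coding genes. The thick line at -2.97 is the DLG2 gene body with the place of the 28S copy, and the neighbours on both sides lie between -0.33 and 0.65.

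Around the other members, 10 genes each, the counts were 1 higher and 0 lower near DLG1 (median -0.04), 3 and 1 near DLG3 (0.13), 0 and 4 near DLG4 (-0.25), and 2 and 2 near DLG5 (-0.18). Over all genes tested, 8.79% were called higher and 12.1% lower.

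DLG2 is also among the longest genes, with a body of 2173324 bases that gives a transcript of 9410 bases, 0.433% of the body. It was the 4th longest gene tested. Of the 66 other tested genes of at least 1 Mb, 56 were above 0, with a median log2 fold change of 0.33 against 0.01 over all genes tested. Of these 66, 7 were called higher and 3 lower, which is 15.2% called, below the share over all genes given above. With library size alone in place of TMM, 18 were called higher and 3 lower. The median level of the long genes was 8.99 CPM, and a given change is harder to call at low counts, which limits that comparison of shares. DLG2 had the lowest log2 fold change of the 67 and in WT the highest level, 1043 CPM, where the guidance receptor gene ROBO1 had 263 CPM. In KO, at 133 CPM, it was the 4th highest, below ROBO1 (281 CPM), AUTS2 and ZFHX3.

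Of the long genes, RBMS3, an RNA-binding protein gene, rose by 1.03 log2 units (adjusted p = 0.00335, edgeR). GALNTL6, of the family that starts O-glycans, rose by 0.83 (adjusted p = 0.0215), and lost its call without KO replicate 2 (0.209) and without WT replicate 1 (0.0666). ZFHX3, a homeodomain factor, and KAZN, a desmosome-associated protein gene, fell by 0.80 (adjusted p = 1.69e-09) and 0.54 (adjusted p = 0.00272).

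**Figure D4:**
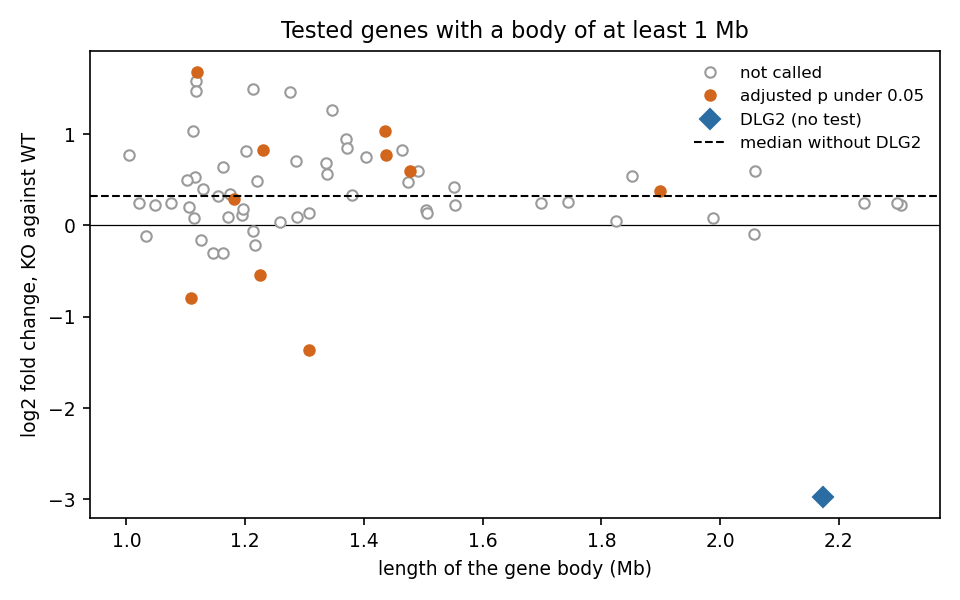
Log2 fold change of KO against WT (vertical) against the length of the gene body in Mb (horizontal) for DLG2 and the 66 other tested genes of at least 1 Mb, with filled points for an adjusted p under 0.05. The median without DLG2 (dashed) is 0.33, and DLG2 lies lowest at -2.97.

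Among the 21 other MAGUKs listed, 20 were tested, 2 rose, 4 fell and 14 were not called, with a median log2 fold change of 0.01. The share called was 30.0%, against 20.9% of all genes tested (8.79% higher and 12.1% lower). MAGI2, an inverted MAGUK with WW domains, had 10.4 and 6.55 CPM in WT and 15 and 13.3 CPM in KO (log2 fold change 0.77, SE 0.23, adjusted p = 0.0180), and MAGI3, its relative, rose by 0.25 (SE 0.08, adjusted p = 0.0402). CARD10, a scaffold of NF-κB signaling, fell by 0.71 (SE 0.20, adjusted p = 0.0117), and MPP3, a palmitoylated MAGUK, fell by 0.50 (SE 0.16, adjusted p = 0.0229). MAGI2 and CARD10 were called in 8 of 11 alternatives, and MAGI3 and MPP3 in 6. Without KO replicate 1 the count called was 2 and without WT replicate 2 it was 3: MAGI2 had an adjusted p of 0.135 and 0.245, MAGI3 of 0.112 and 0.0757, and CARD10 of 0.123 and 0.143 in those fits, and MPP3 had 0.0641 without KO replicate 1.

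The polarity list held the Scribble, PAR and Crumbs complexes, with which DLG proteins set the sides of an epithelial cell. Of 17 genes, 15 were tested, 1 rose, 1 fell and 13 were not called (median -0.06). Thus 13.3% were called, against 20.9% of all genes tested. SCRIB, the partner of DLG in the Scribble complex, had 125 and 146 CPM in WT and 103 and 104 CPM in KO (log2 fold change -0.39, SE 0.08, adjusted p = 8.24e-04), and kept its call in all 11 alternatives. LIN7C, a small PDZ protein that binds CASK, had 101 and 107 CPM in WT and 118 and 124 CPM in KO (log2 fold change 0.22, SE 0.08, adjusted p = 0.0445). It lost its call without KO replicate 1 (0.0785), without KO replicate 2 (0.222) and without WT replicate 1 (0.198).

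Membrane proteins that bind DLG PDZ domains were tested for 20 of 33 genes, and 4 rose, 3 fell and 13 were not called (median 0.05). The share called was 35.0%, against 20.9% of all genes tested. HTR2C, a serotonin receptor gene, had 3.65 and 3.73 CPM in WT and 9.40 and 7.41 CPM in KO (log2 fold change 1.19, SE 0.31, adjusted p = 0.00647), with an adjusted p of 0.136 without KO replicate 1. ADAM22, the receptor of the secreted protein LGI1, rose by 0.50 (SE 0.12, adjusted p = 0.00336). ATP2B4, a calcium pump of the plasma membrane, fell from 101 and 103 CPM to 63.2 and 58.6 CPM (log2 fold change -0.74, SE 0.09, adjusted p = 6.41e-07).

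KCNJ4, an inward rectifier potassium channel gene, fell by 1.33 (SE 0.34, adjusted p = 0.00606; 0.0719 without KO replicate 1). SEMA4C, a semaphorin gene, fell by 0.48 (SE 0.13, adjusted p = 0.00791; 0.0632 without KO replicate 2). The count called for these ligands was 3 without KO replicate 1, in place of 7.

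Intracellular partners were tested for 24 of 28 genes, and 5 rose, 2 fell and 17 were not called (median 0.11). Thus 29.2% were called, against 20.9% of all genes tested. SHANK3, the postsynaptic scaffold that binds DLGAP proteins, had 78.3 and 97.5 CPM in WT and 50.6 and 58.6 CPM in KO (log2 fold change -0.70, SE 0.10, adjusted p = 2.59e-05). SIPA1L3, a Rap GTPase-activating protein gene, fell by 0.39 (SE 0.08, adjusted p = 4.75e-04). DLGAP5, a DLG-associated protein of the mitotic spindle, had 47.4 and 47.1 CPM in WT and 64.0 and 62.3 CPM in KO (log2 fold change 0.42, SE 0.10, adjusted p = 0.00334). These 3 kept their calls in all 11 alternatives.

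APC, the WNT pathway scaffold whose tail binds DLG1, rose by 0.47 (SE 0.11, adjusted p = 0.00308; 0.0544 without WT replicate 2). KALRN, a guanine exchange factor of dendritic spines, rose by 0.71 (SE 0.21, adjusted p = 0.0179), with an adjusted p of 0.156 without KO replicate 1 and 0.153 without WT replicate 2.

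Palmitoylation anchors several DLG proteins at the membrane. Of 10 genes listed for adding or removing the lipid 9 were tested, 0 rose, 3 fell and 6 were not called (median -0.05). The share called was 33.3%, against 20.9% of all genes tested. The transferase gene ZDHHC8 fell by 0.46 (SE 0.11, adjusted p = 0.00263). ABHD17A, a hydrolase that removes palmitate from PSD-95, fell by 0.45 (SE 0.13, adjusted p = 0.0135; 0.238 without KO replicate 1), and the transferase gene ZDHHC7 fell by 0.28 (SE 0.09, adjusted p = 0.0318). The count called was 1 without KO replicate 1 and 5 without WT replicate 2, and ZDHHC7 was called in 5 of 11 alternatives. For a rise, with all libraries kept, 0 genes passed at an unadjusted p under 0.05 in edgeR or were called by DESeq2 or limma-voom.

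Of the genes named above as fallen from the long genes and the lists of related genes, ZFHX3 and ZDHHC7 lie on chromosome 16. CARD10, KCNJ4, SHANK3 and ZDHHC8 lie on chromosome 22. Genes named outside these lists, such as THUMPD1 and STX4, were not sorted by chromosome here. The tested genes of these chromosomes had a median log2 fold change of -0.44 (573 genes on chromosome 16) and -0.42 (311 genes on chromosome 22), below that of the chromosomes of the DLG genes, and the part of this shift in the fall of those 6 genes was not tested.

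**Figure D5:**
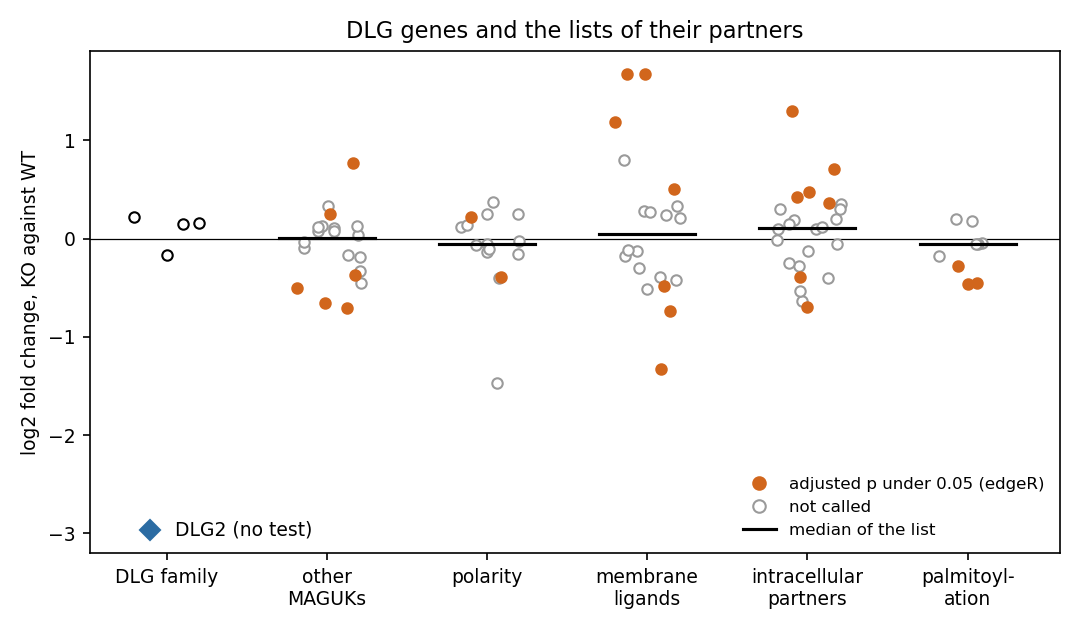
Log2 fold change of KO against WT for the 5 DLG genes and for the tested genes of 5 lists of related genes, with filled points for an adjusted p under 0.05 and a line at each list's median. DLG2 lies at -2.97, the other DLG genes at -0.17 to 0.22, and the list medians at -0.06 to 0.11.

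Neuronal markers were read as well, since DLG2 to DLG4 are best known from neurons. Their summed level was 293 to 322 CPM in WT and 183 to 188 CPM in KO, with 8 of 12 tested, 2 called higher and 1, the neurofilament gene NEFM, called lower at a log2 fold change of -2.87, and with ELAVL4 at or below 3 counts in every library. NEFM had 185 and 177 CPM in WT and 26.3 and 23 CPM in KO. Without it the sum was 137 and 116 CPM in WT and 162 and 160 CPM in KO, so that the summed level of the others lay higher in KO, opposite to DLG2. The called rises were NEFL, a neurofilament gene, at 0.34 (adjusted p = 0.00903, edgeR) and SNAP25, a synaptic SNARE gene, at 2.15 (adjusted p = 0.0364). SNAP25 had only 5 and 3 counts in WT, at or near the floor of 3, and 23 and 21 in KO, so its fold change is uncertain. Fibroblast markers summed to 27.0 to 30.0 CPM in WT and 25.2 to 29.7 in KO.

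Loss of THUMPD1 takes the acetyl mark from leucine and serine tRNAs, and the study looked at decoding of the leucine codons UUA, UUG, CUU and CUA. In the longest coding sequence of each gene these made up 5.08% of the codons of DLG1, 4.94% of DLG2, 1.88% of DLG3, 1.69% of DLG4 and 1.56% of DLG5, against a median of 3.76% over 12977 genes. DLG1 and DLG2 lay above the median and the other 3 members below it, and the part of codon content in any RNA level was not tested.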

How the data were processed

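RNA of 2 WT and 2 THUMPD1 KO libraries was analysed. The values the authors deposited were raw read counts for each symbol in each library, not normalized. The labels name hg19 and a RiboFree kit from Zymo, and the paper's methods name an Illumina kit, RSEM on another build and 3 samples per genotype. Which pipeline made the counts, and whether strand was used, is not given in the sources used here. A table of the authors' own KO against WT comparison (log2 fold changes and p-values) was not used. The quasi-likelihood test of edgeR 4.0.16 (R 4.3.3, TMM scaling) was fitted to the 13128 genes that reached 1 CPM in 2 or more libraries, p-values were adjusted by Benjamini-Hochberg over all of them, and the threshold was 0.05. DESeq2 1.42.0, limma-voom 3.58.1, other normalizations and filters, a replicate block and leaving out each library were alternatives. When a library is left out, the lone library is assumed to vary like the other genotype.

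Symbols were placed on GRCh38 by GENCODE 44, 12167 by symbol and 855 by a synonym in RefSeq. Copies of rRNA were searched with blastn 2.17.0. Lists were compiled by hand, and members and lists were chosen with earlier results of these data known. Named from each list were up to 3 called genes per direction with the largest change, provided they averaged 5 CPM or more and the genotypes did not overlap. Some genes that this rule names are not reported here. The 5 genes most like DLG2, those nearest the limit of -1, and THUMPD1 were named too. Genes named for rRNA copies, overlap with DLG4 or an extreme place in a list were picked once their values had been seen. The test was tried on simulated counts first. Depth is given as total counts, and floors cover counting error only, since reads carry no molecular identifiers. With 2 libraries per genotype the smallest exact permutation p is 0.333, so no such test was run.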

Additional observations from a re-analysis of the deposited data

How the results depend on the processing

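DLG2 had the same direction in all alternatives run, and no gene named from the lists changed sign. Genes called in all numbered 2748, and 1755 by DESeq2, 3222 with the replicate block and 1620 to 2591 with 1 library left out (1620 without KO replicate 1). DLG1 passed the threshold with library size alone (0.30), limma-voom (0.26), the replicate block (0.22) and upper quartile scaling (0.24), and DLG5 with library size alone (0.25), limma-voom (0.22) and upper quartile scaling (0.19). Without 1 library, the log2 fold change ran from 0.16 to 0.27 for DLG1, 0.12 to 0.21 for DLG5, -0.31 to -0.02 for DLG3, 0.05 to 0.24 for DLG4 and -3.25 to -2.73 for DLG2. By DESeq2 the counts called were 2 MAGUKs, 1 polarity gene, 4 intracellular partners, 1 palmitoylation gene, 5 long genes and 0 DLG2 neighbours. With 1 library left out they ran from 2 to 4 MAGUKs, 1 to 2 polarity genes, 3 to 9 ligands, 5 to 8 partners, 1 to 5 palmitoylation genes, 6 to 14 long genes and 0 to 1 neighbours. Library size alone, which moved the median of all genes from 0.01 to 0.09, called 21 long genes and 3 neighbours, and the replicate block 2 neighbours. The WT share of DLG2 in the family level was 71.4% (SD 2.22), and 80.5% by coding length, 85.4% by the median transcript length and 69.8% to 72.9% with 1 WT library left out. With gap columns counted as differences, an alternative chosen after seeing the data, 0 members held an rRNA copy. Apart from the identity over gaps, where the construction of the alternative shows the cause, the cause of these shifts was not tested.

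The replicate numbers were treated only as names. Deviations from the group means of WT replicate 1 and KO replicate 1 correlated at 0.0243 over genes. With 2 libraries per genotype the other pair mirrors this pair, so the value cannot show whether same-numbered libraries were paired. The block gave DLG1 the call noted above. With 2 libraries per genotype the intervals of DLG3 and DLG4 held differences in both directions, and DLG4 rested on 86 to 133 counts.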
